A study of Sus scrofa with 4 samples.

Results

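The respiratory chain of the pig ovary was described through 89 of the 22309 rows of the deposited gene table. A row belonged to the set if its symbol began with the name stem of a nuclear-encoded subunit of complexes I, III, IV or V (NDUFA, NDUFB, NDUFC, NDUFS, NDUFV, UQCR, COX4 to COX8, ATP5), was CYC1 or a subunit of succinate dehydrogenase, or was encoded in the mitochondrial genome. The 89 rows were 13 mitochondrially encoded subunits, 69 nuclear-encoded subunits, 6 assembly factors of complex I whose names share the NDUFA stem (NDUFAF), and ATP5IF1, an inhibitor of ATP synthase. The nuclear subunit rows were 29 of complex I, 3 of complex II, 6 of complex III, 17 of complex IV (NDUFA4 and NDUFA4L2 included, since NDUFA4 is a cytochrome c oxidase subunit) and 14 of complex V.

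The series compared ovaries at diestrus, the luteal stage of the cycle, between pigs labelled WT and pigs labelled Leptin overexpression, with 2 libraries of each, named here WT 1, WT 2, leptin 1 and leptin 2. The leptin animals descended from a boar re-cloned from the leptin-overexpressing line C013, which was mated to Duroc, Landrace and Yorkshire sows; their offspring were intercrossed, and the animals of the next generation were screened by PCR, quantitative PCR and immunoblot for leptin. The promoter of the transgene, the age of the animals and the parentage of the WT animals are not given in the sources used here. Neither do the labels say that the 2 samples of a group were separate animals, so every p-value below measures only the spread between these samples. The tissue is whole ovary, in which fewer cells of a type and less RNA per cell cannot be told apart.

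The respiratory chain passes electrons from NADH (complex I) and succinate (complex II) through coenzyme Q, complex III and cytochrome c to oxygen at complex IV, and complex V uses the proton gradient built on the way to make ATP. Complex II is wholly nuclear-encoded, whereas the other complexes join nuclear subunits to a few subunits translated inside the mitochondrion. Mitochondrial genes are copied as long precursor RNAs that are cut into shorter messages, most of them polyadenylated, so messages of one strand share their promoter. In the ovary, mitochondria of luteal cells also hold the first step of steroid synthesis, the conversion of cholesterol to pregnenolone.

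Library totals lay between 16493113 and 16797511 counts. TMM scaling factors, which correct a total for a few genes taking a large share of it, were 1.34, 0.999, 0.926 and 0.809 for WT 1, WT 2, leptin 1 and leptin 2. WT 1 thus had the highest factor and leptin 2 the lowest, and the median log2 fold change of the 13937 tested genes (leptin over WT) was -0.01 with TMM and -0.43 with library totals alone. Directions of small differences therefore depend on this choice, and both scalings are given. The transcript of LEP itself had 0, 3, 55 and 124 counts, a log2 fold change of 6.18 ± 1.19 (SE; edgeR adjusted p = 0.198). Luteal markers differed widely in level. STAR, the cholesterol carrier of steroid-making cells, was abundant in every library, at 7016, 15150.1, 16531 and 23749.6 TMM-scaled CPM (counts brought to a common library size). The luteal markers LHCGR and PTGFR were lower, at 32.6, 31.5, 24.1 and 44 CPM and at 151, 1314, 444 and 351 CPM. The summed level of 8 oviduct epithelium markers was 568 CPM in WT 1, 299.9 in WT 2, 32.1 in leptin 1 and 29.5 in leptin 2.

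None of the 86 tested members passed an edgeR adjusted p of 0.05 in either direction (lowest adjusted p = 0.35), against 4 of 13937 genes (0.0287%), all higher with leptin. At an unadjusted p under 0.05, edgeR gave 14 members higher and 0 lower, beside 4.04% of all genes higher and 5.32% lower. The 3 rows that did not enter the test for want of counts were COX6B2 and COX7B2, testis-type isoforms with at most 4 counts in any library, and a second, assembled row named ATP5MC1, with 3, 2, 6 and 51 counts.

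Messages of the mitochondrial genome made up 6.89% of all counts in WT 1, 12.9% in WT 2, 15.1% in leptin 1 and 16.4% in leptin 2. WT 1 thus stood farther below WT 2 than WT 2 stood below either leptin library. All 13 were higher with leptin under both scalings, with a median log2 fold change of 1.43 (range 0.69 to 1.68) under TMM and 1.04 under library totals. With TMM both leptin libraries lay above both WT libraries for all 13, where 22.2% of all genes did so. By share of the library total this held for 12 of the 13 (all but COX1), where 6.9% of all genes did so. Under both scalings WT 1 was the lowest library for every one of the 13, and leptin 2 was the highest for 11, COX1 and COX3 being highest in leptin 1. Of all 13937 genes, WT 1 was lowest for 3944 with TMM and 1452 by share of the total. Leptin 2 was highest for 4976 and 2576 of them.

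The 3 catalytic core subunits of cytochrome c oxidase, COX1, COX2 and COX3, had the highest levels per length in the set. COX1, which carries the oxygen-reducing centre, had 20244, 47255, 48737 and 38635 FPKM (fragments scaled to gene length and library size), in the order WT 1, WT 2, leptin 1 and leptin 2, which is kept for every set of 4 values below. On this scale WT 2 was above leptin 2 and the groups overlapped. Its TMM-scaled levels were 23383, 73117, 81351 and 73797 CPM, a log2 fold change of 0.69 ± 0.76 (SE; edgeR adjusted p = 0.765). Without WT 1 the log2 fold change of COX1 was 0.07, and without WT 2 it was 1.71. COX2, which takes electrons from cytochrome c, had 10778, 13619.8, 19284 and 39388 FPKM, so leptin 2 stood far above the other 3 libraries and the groups did not overlap. The log2 fold change of COX2 was 1.68 ± 0.69 (SE; edgeR adjusted p = 0.518), the largest of the 13. COX3, the third core subunit, had 14665, 23515, 32137 and 25319 FPKM. Its leptin libraries lay above its WT libraries by a narrow margin, with a log2 fold change of 0.94 ± 0.66 (SE; edgeR adjusted p = 0.64), which was 0.47 without WT 1.

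**Figure D1:**
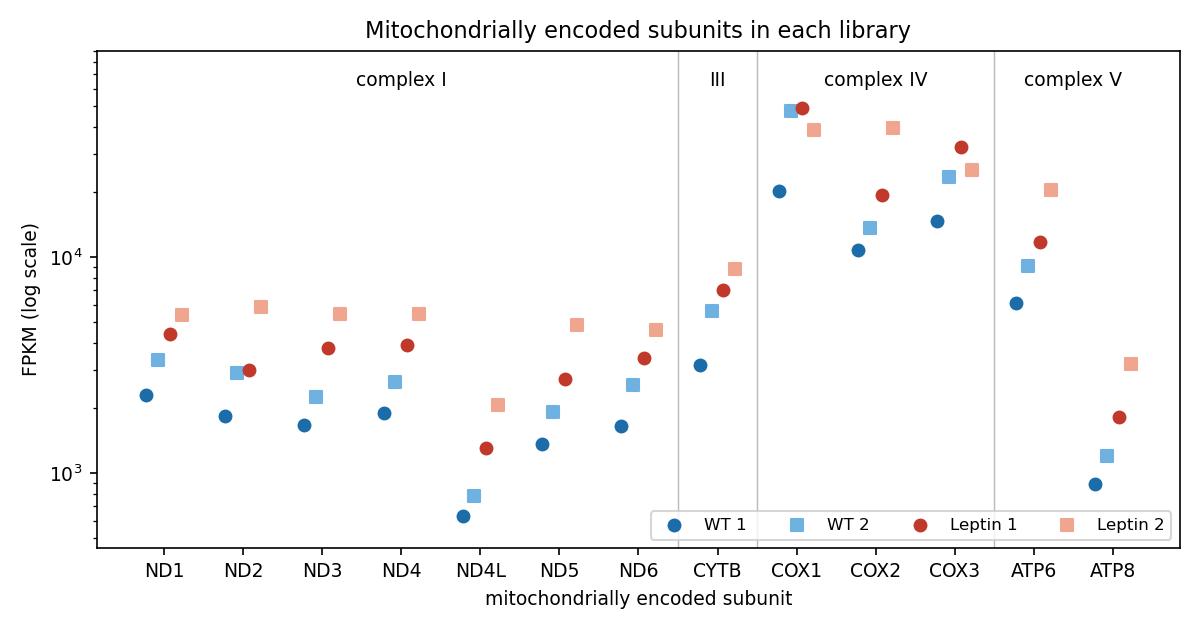
FPKM on a log axis of the 13 mitochondrially encoded subunits, 1 point per library. WT 1 is the lowest point for every subunit, leptin 2 is the highest for 11, and COX1 is the 1 subunit whose groups overlap on this scale.

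The 7 mitochondrially encoded subunits of complex I form its proton-pumping membrane arm. ND3 had 1659, 2251, 3780.2 and 5433 FPKM, ND4L had 629, 779.9, 1310.3 and 2073, and the groups were apart for both. Their log2 fold changes were 1.63 ± 0.55 and 1.67 ± 0.51 (SE; edgeR adjusted p = 0.41 and 0.35). ND2 had 1829.9, 2888, 2998 and 5852 FPKM, and here leptin 1 lay close to WT 2 and leptin 2 far above both. ND1 had 2283, 3329.5, 4377 and 5389 FPKM. ND4 had 1895, 2648, 3898 and 5468 FPKM. ND5 had 1365, 1913, 2712 and 4839.6 FPKM. These values went in the same order of libraries as those of ND3. ND6, the only message read from the other strand of the genome, had 1644, 2540.3, 3420.2 and 4591 FPKM, again in that order, and its log2 fold change of 1.31 lay within the 1.18 to 1.67 of the other 6 (edgeR adjusted p = 0.533). ND4L and ND4 overlap in sequence, as do ND5 and ND6 and ATP8 and ATP6, and no source used here states whether counting used strand. The split of reads within these pairs is uncertain.

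Cytochrome b (CYTB), the mitochondrially encoded subunit of complex III, had 3148, 5593, 7041 and 8759.6 FPKM, with both leptin libraries above both WT libraries and WT 1 well below the rest. Its log2 fold change was 1.21 ± 0.64 (SE; edgeR adjusted p = 0.578). ATP6, part of the proton channel of complex V, had 6132, 9088, 11686 and 20299 FPKM, and ATP8, its small neighbour, had 888, 1196, 1820.4 and 3208. In both, leptin 2 was the highest by a wide margin and leptin 1 lay nearer to WT 2 than to leptin 2. ATP8 had a log2 fold change of 1.67 ± 0.54 (SE; edgeR adjusted p = 0.368) and ATP6 of 1.46 ± 0.66 (SE; edgeR adjusted p = 0.544). With DESeq2 in place of edgeR, 4 members passed, all mitochondrially encoded and all higher with leptin: ND4L (DESeq2 adjusted p = 0.0239), ND3 (0.0285), ATP8 (0.039) and COX2 (0.0466), beside 2.19% of all genes in either direction. With limma-voom and with limma-trend on FPKM 0 members passed, beside 0.00718% and 2.34% of all genes, and with library totals in edgeR 0 passed, beside 3.95%. Without WT 2, edgeR called ATP8, ND4L and ND3 (adjusted p = 0.0317, 0.0407 and 0.0452), but in that fit 4.61% of all genes passed, and with 1 WT library its spread came from the leptin group alone. Without WT 1, leptin 1 or leptin 2, 0 members passed, beside 1.07%, 0.00671% and 0% of all genes.

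The mitochondrial messages did not keep the same proportions to each other in the 4 libraries. COX1 made up 45.4% and 56.5% of the mitochondrially encoded counts in WT 1 and WT 2, 49.8% in leptin 1 and 36.5% in leptin 2. COX2 made up 10.8%, 7.25%, 8.77% and 16.6%. In leptin 2, therefore, COX1 had its lowest share and COX2 its highest, while leptin 1 lay between the 2 WT libraries for both. COX3 made up 16.7%, 14.3%, 16.7% and 12.1%, and ATP6 6.06%, 4.79%, 5.26% and 8.45%. CYTB varied least of these 5, at 5.21%, 4.93%, 5.31% and 6.1%. These shares differed more between the 2 leptin libraries than between leptin 1 and either WT library for COX1, COX2, COX3 and ATP6.

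**Figure D2:**
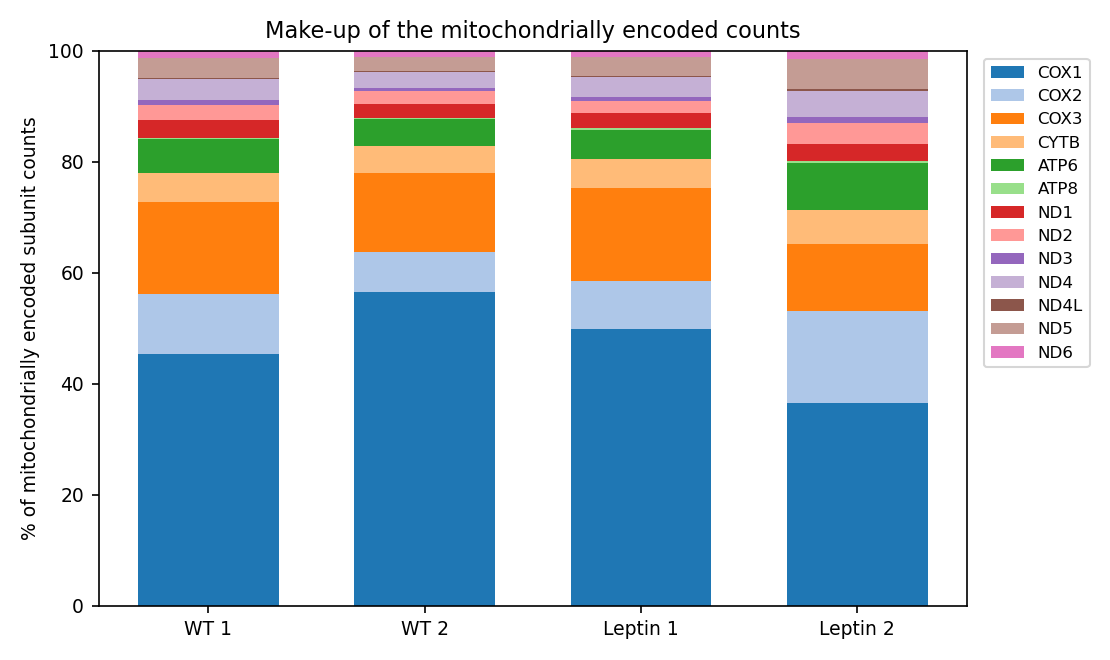
Stacked bars to 100% of the counts of the 13 mitochondrially encoded subunits in each library. COX1 takes 36.5% in leptin 2 and between 45.4% and 56.5% in the other 3 libraries, and COX2 takes 16.6% in leptin 2 and between 7.25% and 10.8% in the others.

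Nuclear-encoded subunits were far less abundant and their direction depended on scaling. Together they made up 0.896%, 0.761%, 0.796% and 0.875% of all counts, a mean of 0.828% ± 0.0958 in WT and 0.836% ± 0.0561 in leptin (SD, n = 2 each). With TMM, 65 of the 66 tested were higher with leptin (49.3% of all genes were), with a median log2 fold change of 0.43 (quartiles 0.24 and 0.64). With library totals 35 were higher and 31 lower, with a median of 0.02 (25.8% of all genes were higher). Under totals 65 of the 66 still lay above the all-gene median of -0.43. Both leptin libraries lay above both WT libraries for 45 of the 66 with TMM and for 11 by share of the total (22.2% and 6.9% of all genes did). They lay below for 0 and 8 (22.9% and 39.9% of all genes did). The 11 apart by share of the total were also apart with TMM: NDUFA13, NDUFB11, UQCR10, UQCRFS1, COX6C, COX7A2, COX7A2L, COX7C, NDUFA4, ATP5MC3 and ATP5PF. With TMM the highest library was leptin 2 for 55 of the 66, and for 4976 of all 13937 genes. By share of the total it was WT 1 for 36 of the 66, and for 8163 of all 13937 genes. The difference between group means exceeded both differences within a group for 35 of the 66 with TMM (53%, against 25.7% of all genes) and for 12 by share of the total (18.2%, against 28.4%).

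**Figure D3:**
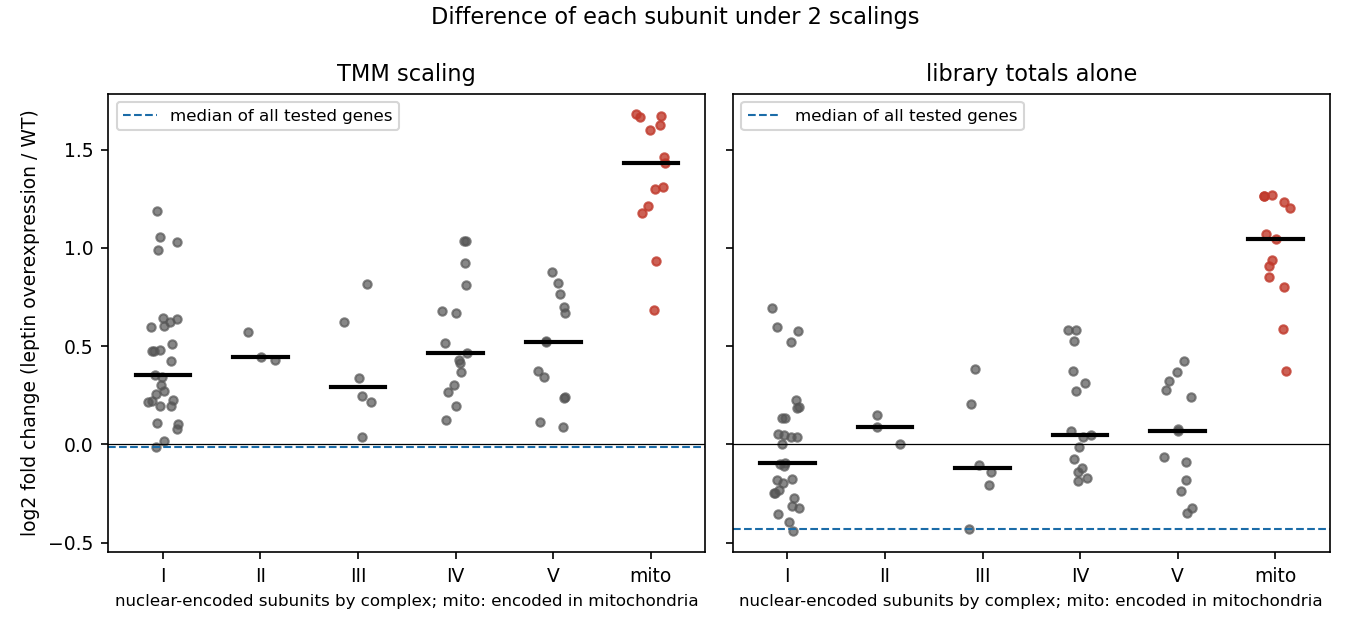
Log2 fold change (leptin over WT) of each tested nuclear-encoded subunit by complex and of the mitochondrially encoded subunits, with TMM and with library totals; bars are medians and the dashed line is the median of all tested genes (-0.01 and -0.43). The nuclear points lie almost wholly above 0 with TMM and on both sides of 0 with totals, and the mitochondrial points lie above 0 in both panels.

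By complex, the median log2 fold changes of nuclear-encoded subunits under TMM were 0.35 for I, 0.45 for II, 0.29 for III, 0.47 for IV and 0.52 for V, and under library totals -0.09, 0.09, -0.12, 0.05 and 0.07. The spread within each of complexes I, III, IV and V was wider than these distances, and the difference between complexes was not tested. Within complex I, the 6 tested core subunits, which carry the flavin and iron-sulphur clusters, had a TMM median of 0.30 and the 23 supernumerary subunits, which surround them, of 0.43. Of the nuclear subunit counts, complex I took 28.6%, 26.9%, 27.1% and 27.4%, complex II 4.91%, 6.76%, 6.72% and 5.42%, and complex III 12.7%, 13.3%, 12.8% and 12%. Complex IV took 19%, 20.6%, 21% and 23.1%, and complex V 34.7%, 32.5%, 32.4% and 32%. The share of complex IV was higher in both leptin libraries than in both WT libraries, that of complex V was lower in both by a narrow margin, and that of complex II varied most in relative terms, with WT 1 and leptin 2 both low.

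In complex I the largest differences were in small supernumerary subunits with their highest level in leptin 2. NDUFB3, of the membrane arm, had 21.1, 16.5, 25.6 and 60.3 CPM, and NDUFA5, of the matrix arm, had 25.7, 21.6, 32.2 and 66.1. For both, leptin 2 had more than 2 times the level of every other library, and leptin 1 lay just above the WT libraries. The log2 fold change of NDUFB3 was 1.19 ± 0.47 (SE; edgeR adjusted p = 0.509) with TMM and 0.70 with totals, and 0.46 without leptin 2. NDUFS4, needed late in assembly of the complex, had 85.5, 53.7, 98.6 and 186 CPM, again highest in leptin 2. NDUFB11 had 80.1, 127, 179.8 and 232 CPM (log2 fold change 0.99, edgeR adjusted p = 0.524), both leptin libraries lying well above both WT libraries. NDUFS4 and NDUFB11 are named after their values were seen. Among core subunits, NDUFV2, an iron-sulphur subunit, had 106, 121, 144 and 171 CPM. NDUFB4, a supernumerary subunit, had 75.6, 104, 108 and 114 CPM. For both the leptin libraries were above the WT libraries with TMM, with a gap between the groups smaller than the spread within at least 1 of them. By share of the library total the order of NDUFB4 turned, both leptin libraries lying below both WT libraries (log2 fold change -0.10), and the groups of NDUFV2 overlapped. NDUFV1, which binds the flavin that takes electrons from NADH, was the 1 nuclear subunit not higher with TMM. It had 87.4, 132, 113 and 104 CPM, the leptin values lying between the 2 WT values (log2 fold change -0.01 ± 0.38 SE, edgeR adjusted p = 0.993).

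The 3 members of complex II, succinate dehydrogenase, each had a slightly higher mean with leptin under TMM. SDHB, the iron-sulphur subunit, had 81.1, 91.7, 103 and 130.0 CPM. SDHD, a membrane anchor, had 62.9, 75.5, 89 and 117 CPM, with a log2 fold change of 0.57 ± 0.37 (SE; edgeR adjusted p = 0.613) and, by totals, the largest value of the complex, 0.15. In both, the 2 leptin libraries were above the 2 WT libraries with TMM and overlapped them by share of the total, with, under TMM, less than the gap between the leptin libraries separating WT 2 from leptin 1. SDHC, the other anchor, had 185, 348, 386 and 339.5 CPM, so only WT 1 stood apart; its log2 fold change of 0.45 was 0.04 without WT 1. SDHA, the flavoprotein, had no row under its symbol and was found by its description: it had 248, 417, 359.8 and 309 CPM, so its leptin values lay between its WT values.

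Of the nuclear subunits of complex III, UQCR10, a small subunit, had 64.5, 70.2, 107 and 130.0 CPM, and its groups were apart (log2 fold change 0.82 ± 0.36 SE, edgeR adjusted p = 0.533; 0.39 with totals). UQCRFS1, the Rieske iron-sulphur protein, had 183, 237, 277 and 369.8 CPM, also apart. UQCRC1, a core protein, had 227, 349.7, 336 and 347 CPM, and CYC1, cytochrome c1, had 157, 115, 127 and 152. In these last 2 the groups overlapped: WT 1 was the lowest library for UQCRC1 and the highest for CYC1, whose log2 fold change was 0.04 with TMM and -0.43 with totals.

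In complex IV, COX6C and COX7A2L had the largest differences of the nuclear subunits. COX6C, which had the highest mean level per length of the tested nuclear subunits in the set chosen by symbol (352, 265, 372 and 552 FPKM), had 130.0, 131, 198 and 337 CPM. COX7A2L, a COX7A-related protein that links complexes III and IV in supercomplexes, had 92.8, 89.2, 144 and 229.6 CPM. Both genes had close WT values and 2 higher leptin values, with leptin 2 well above leptin 1. Their log2 fold changes were each 1.04 (SE 0.43 and 0.41; edgeR adjusted p = 0.521 and 0.504) with TMM and 0.58 with totals. NDUFA4 had 37.2, 60.2, 77.6 and 107 CPM, with the groups apart. COX4I1, the ubiquitous form of the regulatory subunit that binds ATP, had 179.9, 186, 186 and 265 CPM, with 3 libraries nearly equal and leptin 2 higher. COX7B had 77.2, 86.6, 83.2 and 151 CPM, the same pattern with the groups overlapping.

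Isoform pairs of complex IV and V were set side by side because they mark tissue or oxygen state. NDUFA4L2, the hypoxia-induced relative of NDUFA4, had 3.04, 20.9, 16.9 and 9.11 CPM, and its share of the summed FPKM of the pair was 2.74% and 10.7% in WT and 7.08% and 2.85% in leptin. The 2 WT libraries thus spanned the whole range, and its log2 fold change was 0.12 with all libraries, -0.70 without WT 1 and 2.08 without WT 2. COX4I2, a form of COX4 known from lung and from hypoxia, made up 2%, 3.51%, 4.37% and 2.98% of the COX4 pair. COX6A2, the heart and skeletal muscle form of COX6A, made up 11.8%, 6.52%, 8.86% and 6.78%, and its partner COX6A1 had 220.3, 372, 359 and 441 CPM. COX7A1, the other heart and muscle form, made up 4.66%, 5.6%, 3.95% and 3.18% of the summed FPKM of COX7A1, COX7A2 and COX7A2L. Its share was lower in both leptin libraries than in both WT libraries, and the gap between WT 1 and leptin 1 was smaller than that between the WT libraries. Beside these muscle forms, the summed level of 7 striated muscle markers was 6.3, 5.31, 11.7 and 8.28 CPM, and 3 of the 4 tested were higher with leptin under both scalings (median log2 fold change 0.69 with TMM). Of these 3, TNNC2 had only 17, 7, 13 and 11 counts and MYH2 only 5, 8, 17 and 12. The log2 fold change of TNNC2 with totals was 0.0023. CKM, the muscle creatine kinase, had 2.76, 3.82, 6.2 and 6.12 CPM and MYH7, a slow muscle myosin, 2.45, 0.477, 1.89 and 0.224, while ACTA1, the skeletal muscle actin, was at 0 counts in every library. The part of muscle cells in the isoform shares was not tested. COX7A2, the widespread form, had 41.3, 64.4, 75.7 and 92.2 CPM, and COX8A, the widespread form of COX8, had 73.8, 74.9, 84.1 and 108. Both widespread forms had the leptin libraries above the WT libraries under TMM, and by share of the total COX7A2 alone of the pair did.

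The nuclear subunits of complex V include the catalytic head (ATP5F1A and ATP5F1C), the stalk (ATP5PO and ATP5PB) and the membrane ring (ATP5MC1, ATP5MC2 and ATP5MC3, whose mature protein is the same). ATP5F1A, the alpha subunit of the head, had 664, 836, 762 and 832 CPM, with overlapping groups and log2 fold changes of 0.09 with TMM and -0.32 with totals. ATP5F1C, the rotating shaft, had 353, 359, 409 and 495 CPM, and ATP5PO had 205, 182, 258 and 300.0. ATP5PB had 191, 214, 256 and 432 CPM, with leptin 2 far above the rest. In these 3 the leptin libraries were above the WT libraries with TMM, and the groups overlapped by share of the total. The largest differences were in 2 small membrane-bound subunits, ATP5MD, with 40.5, 43.2, 55.6 and 98.1 CPM (log2 fold change 0.88 ± 0.39 SE, edgeR adjusted p = 0.543; 0.43 with totals), and ATP5MPL, with 53.8, 53.4, 76.6 and 113 CPM (0.82 ± 0.37 SE, edgeR adjusted p = 0.544). Among the ring genes, ATP5MC2 held 66.7%, 53.1%, 60.9% and 58% of the summed FPKM, ATP5MC1 25.7%, 36.1%, 27.7% and 29.7%, and ATP5MC3 7.55%, 10.8%, 11.3% and 12.4%. Only ATP5MC3 had both leptin libraries above both WT libraries in share. Reads of these genes, whose mature protein is the same, and of the second ATP5MC1 row may be split unevenly. ATP5IF1, which blocks ATP synthase from running backwards, had 69.8, 109, 129 and 155 CPM, a log2 fold change of 0.67 ± 0.40 (SE; edgeR adjusted p = 0.601).

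The balance of the 2 genomes was measured within each library, where no scaling between libraries is needed. Counts of mitochondrially encoded subunits were 7.69 and 17 times those of nuclear-encoded subunits in WT 1 and WT 2, and 19 and 18.7 times in leptin 1 and leptin 2. WT 1 stood apart and the other 3 libraries were close together. The group difference in log2 ratio was 0.72, 1.65-fold, which was smaller than the difference between the 2 WT libraries (log2 ratios 2.94 and 4.09), and it was 0.15 without WT 1 and 1.29 without WT 2. With 2 against 2 an exact permutation test cannot go below p = 0.333. Within complex I the ratio was 4.22, 7.67, 9.78 and 13.5, within complex III 3.14, 6.31, 7.9 and 9.52, and within complex V 1.4, 2.6, 3.23 and 5.16. In these 3 complexes the libraries had one order, with leptin 2 the highest. Within complex IV the ratio was 29.4, 64.4, 68.1 and 52.7, with leptin 2 below WT 2, and COX1 forms most of its mitochondrial part. With COX1 left out of the mitochondrial sum over all complexes, the group difference in log2 ratio was 0.93.

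**Figure D4:**
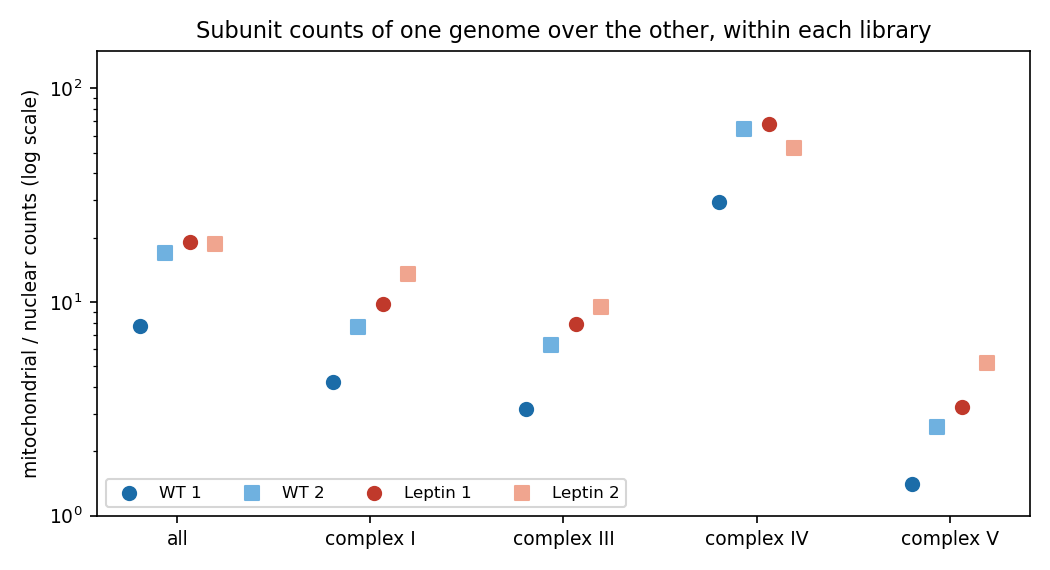
Counts of mitochondrially encoded over nuclear-encoded subunits within each library, on a log axis, for all complexes and for complexes I, III, IV and V. WT 1 is the lowest library in every column, and the leptin libraries lie above WT 2 except in complex IV, where leptin 2 is at 52.7 and WT 2 at 64.4.

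Assembly factors build the complexes without remaining in them. Of the 6 NDUFAF members, 5 were higher with leptin under TMM (median log2 fold change 0.34) and 2 under totals (median -0.11). NDUFAF1 had 54.4, 63.7, 68.7 and 101 CPM and NDUFAF7, a methyltransferase, had 13.5, 12, 16.5 and 24.4, both with the groups apart under TMM and overlapping by share of the total. NDUFAF3 had 20.6, 26.5, 29.4 and 31.3 CPM. NDUFAF5 had 8.75, 10.1, 8.09 and 9.25 CPM, with the groups overlapping, and by share of the total both leptin libraries lay below both WT libraries. Of 34 assembly factors for the other complexes and for complex I outside the NDUFAF names, 26 were higher with leptin under TMM (median 0.26) and 12 under totals (median -0.17). The largest difference in that list was in COA4, a factor for complex IV, with 12.4, 19, 31.5 and 86.8 CPM (log2 fold change 1.91 ± 0.53 SE, edgeR adjusted p = 0.282), which is named here after its values were seen. COX17, the copper chaperone of complex IV, had 31, 26.1, 47.1 and 56.3 CPM, and COA3, which steadies new COX1 protein, had 43.7, 39.6, 51.4 and 59.9. In both the groups were apart under TMM.

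Genes that copy, process or stabilise mitochondrial RNA were looked at beside the mitochondrial messages. The list also held genes that act on mitochondrial DNA, namely POLG, POLG2, TWNK, SSBP1 and TOP1MT. Of 28 rows (27 genes, TRMT10C having 2 rows), 22 were higher with leptin under TMM (median 0.42) and 12 under totals (median -0.03), and 0 passed edgeR's adjusted threshold. TFAM, which packs mitochondrial DNA and starts its transcription, had 33.6, 24, 33.6 and 101 CPM, so leptin 1 was at the level of WT 1 and only leptin 2 was high. TFB2M, the partner of the mitochondrial RNA polymerase at promoters, had 6.71, 11.6, 17.2 and 24.8 CPM (log2 fold change 1.20 ± 0.46 SE, edgeR adjusted p = 0.489), in the same order of libraries as ND3. Both were named after their values were seen. HSD17B10, a part of the mitochondrial RNase P, had 51.7, 54.3, 70.2 and 71.8 CPM, and SLIRP, which steadies mitochondrial messages, had 21.3, 15.7, 18.5 and 31.2. The groups were apart for the first and overlapped for the second. Of 10 tested regulators of respiratory genes, 4 were higher under TMM (median -0.18) and 2 under totals (median -0.63). The 2 with the highest FPKM were YY1, at 67.7, 79.4, 84 and 85 CPM, and PPARD, at 41.7, 68.9, 53.2 and 30.7. PPARGC1A, a coactivator of mitochondrial biogenesis, had 0.997, 2.8, 2.87 and 8.51 CPM, and its relative PPARGC1B had 2.13, 3.16, 1.04 and 0.672. The first was highest in leptin 2 and the second lowest there (edgeR adjusted p = 0.564 and 0.565; both genes named after their values were seen).

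Other parts of the mitochondrion had TMM medians below that of the mitochondrial messages. Of 13 rows (12 genes) for cytochrome c and coenzyme Q synthesis, 9 were higher (median 0.13). Cytochrome c, CYCS, has 2 of these rows: the annotated one had 101, 98.4, 95.8 and 162 CPM, with overlapping groups, and an assembled one had 21.6, 19, 15.5 and 18.3, with both leptin libraries below both WT libraries. COQ9, of coenzyme Q synthesis, had 60.1, 96.9, 99.5 and 88.7 CPM. Of 13 genes of the citric acid cycle, 8 were higher (median 0.25), with MDH2, malate dehydrogenase, at 469, 862, 786 and 792 CPM, only WT 1 standing apart, and SUCLG1, of succinyl-CoA ligase, at 174, 241, 294 and 374. Of 21 genes of mitochondrial membranes, import and transport, 19 were higher (median 0.38), among them the phosphate carrier SLC25A3 at 541, 797, 1137 and 1291 CPM and the ADP/ATP carrier SLC25A6 at 744, 734, 1133 and 1359.7. Under library totals the medians of these 3 lists were -0.30, -0.13 and -0.05. None of their genes passed edgeR's adjusted threshold.

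The nuclear respiratory set did not stand alone in its TMM difference. Of 75 tested rows of cytosolic ribosomal protein genes, 74 were higher with leptin under TMM (median 0.70; 0.24 under totals), and of 75 rows of mitochondrial ribosomal protein genes, 62 were (median 0.27; -0.18 under totals). The median deviation from the gene mean of the nuclear subunits was -0.28, -0.17, 0.05 and 0.37 with TMM, and 0.14, -0.17, -0.07 and 0.06 with totals. That of the mitochondrially encoded subunits was -1.21, -0.24, 0.38 and 1.18 with TMM and -0.79, -0.24, 0.27 and 0.88 with totals. The mitochondrial set thus kept 1 order of libraries under both scalings, whereas in the nuclear set WT 1 went from the lowest library to the highest. Over all tested genes the median deviation was 0.006, 0.028, 0.008 and 0.002 with TMM, and 0.43, 0.03, -0.10 and -0.30 with totals. By totals WT 1 was thus the highest library over all genes too.

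**Figure D5:**
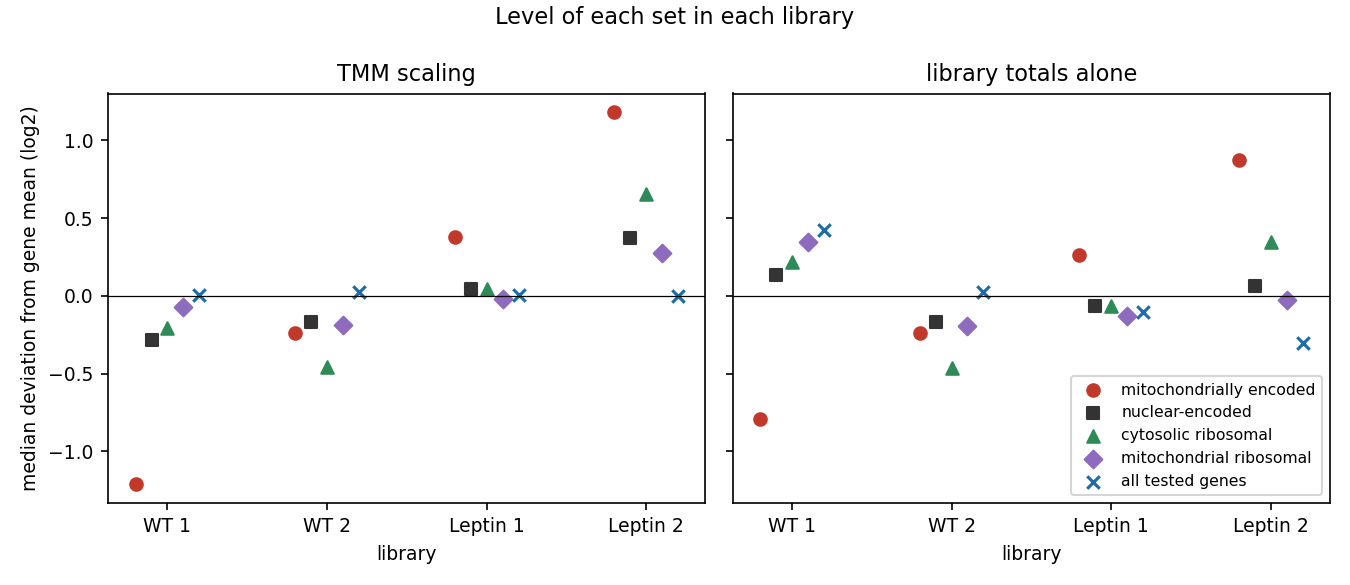
Median deviation from the gene mean (log2) of mitochondrially and nuclear-encoded subunits, cytosolic and mitochondrial ribosomal protein genes and all tested genes in each library, with TMM and with library totals. The mitochondrially encoded subunits run from -1.21 in WT 1 to 1.18 in leptin 2 with TMM and from -0.79 to 0.88 with totals; the nuclear-encoded subunits run from -0.28 to 0.37 with TMM and lie between -0.17 and 0.14 with totals.

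Cell type markers moved with the libraries too. The summed level of 7 luteal markers was 20627 CPM in WT 1 against 44413 in WT 2, 41917 in leptin 1 and 46155 in leptin 2, so WT 1 was again the library apart, and 6 of the 7 were higher with leptin under TMM but 2 of the 7 under library totals (median log2 fold change 0.16 and -0.23). All 6 endothelial markers (summed 680.1, 1296, 858 and 399.8 CPM), all 8 oviduct epithelium markers and 7 of 8 leukocyte markers (summed 752, 756, 604 and 557 CPM) had lower log2 values with leptin. So did 6 of 7 smooth muscle and pericyte markers (summed 1405, 1520, 878 and 983 CPM). Under TMM 3 of 6 granulosa markers, 4 of 7 theca and stroma markers, 2 of 3 tested adipocyte markers and 0 of 2 tested erythroid markers were higher with leptin. The sum of 7 oocyte markers was 142 CPM in WT 1 and 21.6 to 24.7 in the other 3. The part of cell make-up in the respiratory chain values was not tested. Gene length also differed among members: lengths implied by counts and FPKM ran from 425 to 7692 bases in the nuclear subunits, 8 of 66 being over 3000 bases, so their FPKM levels depend on the gene model used. The Spearman correlation of this length with the log2 fold change was -0.19 across the 66 nuclear subunits and -0.12 across 12555 genes, which share the same 4 libraries.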

How the data were processed

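Poly(A)-selected RNA from 4 ovary samples (2 WT, 2 Leptin overexpression) was sequenced by the submitters, per the labels' protocols. The tools listed, with no role or order, are RSEM and StringTie 1.3.1 besides HISAT2, fastp 0.18.0, edgeR 3.32.0, Bowtie2 2.2.8 and DESeq2, per the submitters' processing notes; the genome build and the use of strand are not given in the sources used here. The authors deposited estimated counts (expected counts, not scaled) and FPKM values (scaled to gene length and depth) for each gene in 1 table, whose control columns were matched to the WT samples by number. Symbols came from the table for 15883 rows, from the given gene tables for 664 and 2222, and 3540 had none; no sequence or coordinate was used.

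Expected counts were rounded to whole numbers and tested with edgeR 4.0.16 in R 4.3.3 (quasi-likelihood, robust, TMM, filterByExpr, genotype only, Benjamini-Hochberg over all 13937 tested genes; 8372 rows removed). Levels are TMM-scaled CPM; FPKM served for levels between genes. SE was taken as the size of the log2 fold change over the root of its F statistic. Shares and ratios used unscaled counts. DESeq2 1.42.0 and limma 3.58.1, on log2(FPKM + 1) and by voom, were alternatives. The edgeR test was checked on simulated counts with a fixed low dispersion and with differences larger than that of any member. This check does not cover differences of the size seen here. Named genes were all mitochondrial members, for each complex the 3 with the highest mean FPKM, those with the 2 largest differences in each direction, the isoform sets, ATP5IF1 and LEP, and for each list those past the threshold or otherwise the 2 with the highest FPKM. The members and lists were chosen with earlier results of these data known. The same-numbered libraries' deviations correlated at -0.0995 over 13937 genes, so the numbers were not treated as pairs. Only 2 residual degrees of freedom limit the precision. Library totals of 16493113 to 16797511 counts make sampling noise small for all but the rarest members. A further 14 subunit rows without a symbol, named only by their description, were outside the rule. For 1 gene that the naming rule selects, values are not reported here.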

Additional observations from a re-analysis of the deposited data

How the results depend on the processing

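The number of members past the threshold was 0 in edgeR and stayed 0 with RLE, upper-quartile and library-total scaling, with mitochondrial rows left out of scaling, with either other filter, with limma-voom and with limma-trend, while DESeq2 gave 4. Leaving out 1 library gave 0 to 3 (3 without WT 2, where 681 of all genes passed; 153, 1 and 0 passed without WT 1, leptin 1 and leptin 2). The median log2 fold change of the nuclear-encoded subunits, 0.43, was 0.0189 with library totals (all genes -0.43) and 0.0269 with limma-trend on log2(FPKM + 1) (all genes -0.30), so the direction seen with TMM, RLE and upper-quartile factors rests on the scaling. Leaving out 1 library gave 0.27 (without leptin 2) to 0.59 (without leptin 1). The median of the mitochondrially encoded subunits, 1.43, ranged from 0.98 (without leptin 2) to 1.94 (without WT 2), and the log2 ratio of the 2 genomes, 0.72, from 0.15 (without WT 1) to 1.29 (without WT 2); with summed FPKM it was 0.76. With the replicate number as a block, 0 members passed (23 of all genes against 4 without it), the nuclear median was 0.46, the mitochondrial median 1.46 and the log2 ratio 0.72. The numbers do not show pairing, and the block changed no other call. Adding the subunits named only by description, a choice made after seeing the data, gave a nuclear median of 0.43 and a log2 ratio of 0.76. Having 2 libraries a group limits every statement on members, and depth limits only the isoforms with few counts.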

Other observations

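A further 14 respiratory chain rows had no symbol and were recognised only by their description, so they fell outside the rule that chose the members. COX8C, a testis form, had 10, 1, 0 and 0 counts and was not tested. All 13 others had a log2 fold change above 0 under TMM (median 0.42), and 6 did under library totals (median -0.03), close to the medians of the 66 nuclear-encoded subunits; none passed edgeR's adjusted threshold. UQCRH, the hinge protein of complex III, had 80.8, 71.6, 108 and 155 CPM in WT 1, WT 2, leptin 1 and leptin 2 (log2 fold change 0.79 ± 0.38 SE, edgeR adjusted p = 0.564), the largest value of the 13. ATP5F1B, the beta subunit that makes ATP, was the most abundant of them and had 976, 1168, 1139.8 and 1113 CPM, with WT 2 the highest. It resembled ATP5F1A in having overlapping groups. NDUFS7, an iron-sulphur subunit of complex I, had 46.2, 46.4, 45.9 and 49.8 CPM, close to equal in all 4 libraries under TMM, with a log2 fold change of 0.05 (edgeR adjusted p = 0.968) and of -0.39 under library totals.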
